A study of Ambystoma californiense with 99 samples.

Results

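Acute heat was compared with no heat in the brains of BTS animals. BTS is the label of the barred tiger salamander, taken here to be Ambystoma mavortium. The libraries were those of the brain table tagged BTS, which leaves out the BTSbc backcrosses. There were 11 of them among 99 samples of the series, 6 from heated and 5 from control animals. Heated animals were kept under acute thermal stress until, laid on their backs, they failed to turn over for 30 seconds. Controls carry the tag Control, and the labels give the same 30 seconds for control samples too. No source used here gives the temperature, the length of the heating or the age of the animals. Whole brain was the tagged tissue, poly(A) RNA was sequenced from a stranded library, and each library came from its own animal. The heated animals were 5 females (20, 38, 53, 75 and 78) and 1 male (90), and the controls were 2 females (60 and 71) and 3 males (68, 69 and 74), so sex was a term of the model. The main fit took 42 brain libraries: these 11, 10 of CTS and 21 of F1, heated and control. CTS is the California tiger salamander and F1 its hybrids with BTS. Every p and SE of the main fit rests on a spread and a sex term shared by these genotypes. The question is the one the study's design text names, how expression differs after acute thermal stress.

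Heat unfolds proteins, and cells answer it with the heat shock response. The transcription factor HSF1, held inactive by chaperones in unstressed cells, is freed and switches on genes for HSP70, HSP90, small heat shock proteins and the DNAJ co-chaperones that guide HSP70. Immediate early genes such as FOS and JUN, which encode AP-1 transcription factors, answer many stresses and also neuronal firing. In vertebrate brains constitutive HSP70 and HSP90 are abundant without stress, and the inducible members stand far below them until heat is applied.

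The 11 libraries held 3213005 to 13506066 counted reads. Defining markers of neurons and glia were abundant in all of them: the summed level of 11 neuron features was 3760 to 9386 CPM, and that of 10 oligodendrocyte features 2486 to 13220 CPM. CPM is the count of a feature scaled to a common library size. Sums of marker lists, and the single values in this paragraph, are CPM of the library total. Other CPM values are after TMM scaling, a correction for library composition, unless another scale is named. Libraries differed in their levels of cell type markers. The oligodendrocyte sum ran from 4815 to 13220 CPM in controls, and in heated animals it was lower than any control in 20, 38 and 78 (3381, 2486 and 3646 CPM), while 53 had 11992, 90 had 8854 and 75 had 5409 CPM. Pituitary markers summed over 4 features to 3775 to 6897 CPM in controls. In heated animals 20, 38, 53, 75, 78 and 90 that sum was 2267, 3317, 2839, 4314, 2848 and 8116 CPM. CHGA was its largest member in each library, with 3806 of 6365 CPM in control 60 and 5625 of 8116 CPM in heated animal 90. The sum therefore rests mainly on that gene and is no measure of pituitary tissue by itself. PRL, the next largest member, had 1413 to 2524 CPM in controls. It had 819, 1276, 939, 1642, 971 and 2470 CPM in the heated animals in the same order. How much pituitary each library held was not tested. Homeobox genes of the HOX clusters, a list added after the data were seen, mark hindbrain and spinal cord in vertebrates. They summed over 13 features to 7.88, 116, 76.5, 67.3 and 10.1 CPM in controls 60, 68, 69, 71 and 74. The sums were 12.1, 0, 73.8, 7.36, 1.87 and 39.4 CPM in heated animals 20, 38, 53, 75, 78 and 90. The median was 67.3 CPM in controls and 9.73 CPM in heated brains. How much hindbrain and spinal cord each library held was not tested. Genes of hepatocytes, a list added after the data were seen, summed over 25 features to 58.7 to 83.7 CPM in controls and to 322 CPM in heated animal 75. There fgb.S, a fibrinogen chain at 0 in all 5 controls, stood at 35.7 CPM and APOB, the main apolipoprotein of lipid export, at 28.5 CPM. Animal 78 had 2.5 CPM of fgb.S and 5.0 CPM of APOB.

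In the main fit of 42 BTS, CTS and F1 brain libraries, 3 features were higher after heat and none lower. All 3 have names that the deposited table cuts to their first word. Counts were tested with edgeR's quasi-likelihood test, with Benjamini-Hochberg adjustment over all features and a threshold of 0.05, and the 3 are 0.0194% of the 15487 features tested. Of all features tested, 836 (5.4%) had an unadjusted p under 0.05, these 3 included, against 774.4 by chance alone. No feature passed with the 11 BTS brains alone, or with F1 animals 16 and 64, left out of the main fit, kept. The count was 1 without heated animal 90, 5 without 78 and 6 without 53 or 75, and DESeq2 called 15 (10 higher, 5 lower). Those 15 hold the 3, a further "heat" feature (AMEXTC_0340000248058) and the small heat shock protein hspb6. They are headed by Kng1 (AMEXTC_0340000040117), a hepatocyte gene found only in heated animals 75 and 78. Over all features tested the median log2 change was -0.0042, and 49.5% were higher after heat.

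The largest rise was that of AMEXTC_0340000125485, named "heat". Its level was 10.1, 11.7, 11.5, 7.82 and 4.71 CPM in controls 60, 68, 69, 71 and 74. In heated animals 20, 38, 53, 75, 78 and 90 it was 848, 8806, 216, 180, 2753 and 5182 CPM. Every heated brain stood above every control, and the heated brains spanned a far wider range than the controls. The means were 9.17 ± 2.94 CPM in controls and 2998 ± 3431 CPM in heated brains (SD, n = 5 and 6), and the fitted rise was 8.33 on the log2 scale (SE 1.14, adjusted p = 0.000124). In the 2 highest heated brains, 38 and 90, this 1 feature took 46076 and 67998 reads.

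The second, AMEXTC_0340000055673, is also named "heat" and was nearly silent without heat. The 5 controls held 2 reads in all and the 6 heated brains 559. The ratio of the depth-scaled counts was 214, with a 95% interval of 59.1 to 1770 that covers counting error only. Heated levels were 1.37, 40.1, 0.136, 0.321, 5.48 and 24.2 CPM in the order above, and controls lay between 0 and 0.174 CPM, so that animal 53 fell inside the control range. The rise had an adjusted p of 0.00691 by edgeR's quasi-likelihood test.

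The third, AMEXTC_0340000124757, is named only "nucleotide-binding". It measured 3.38, 3.75, 3.72, 0.522 and 1.18 CPM without heat, while the heated brains had 21.8, 83.5, 7.09, 6.10, 47.2 and 46.5 CPM. The groups did not overlap, and the fitted rise was 3.81 (SE 0.68, adjusted p = 0.00859 by edgeR). The calls depended on which libraries were fitted. Fitted on the 11 BTS brains alone, the first had an adjusted p of 0.0772 and the third of 0.918, while the second was not tested there. None of the 3 passed with F1 animals 16 and 64 kept (0.119, 0.111 and 0.136 in the order above). AMEXTC_0340000055673 and AMEXTC_0340000124757 missed the threshold without heated animal 90 (adjusted p = 0.0724 and 0.0646) and the latter also without control 71 (adjusted p = 0.0869).

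**Figure D1:**
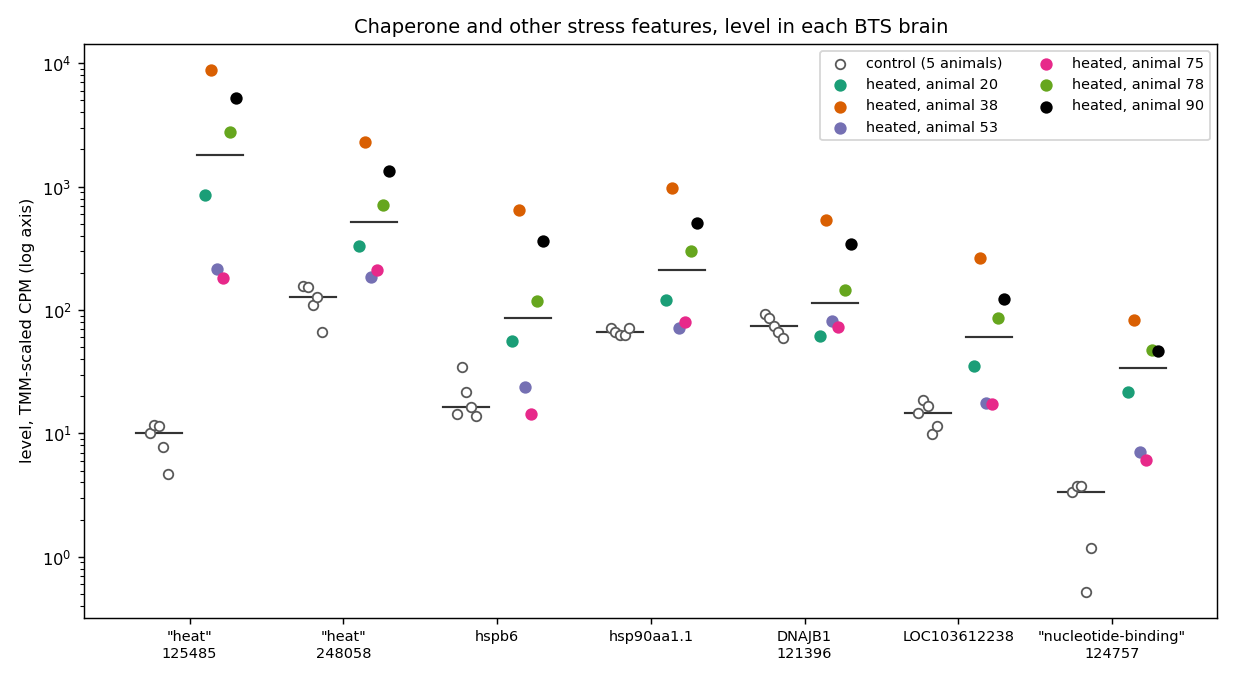
Level of 7 features in each BTS brain, in TMM-scaled CPM on a log axis. Features with cut names are not identified as chaperones or stress genes. Open points are the 5 controls, coloured points the 6 heated animals and short lines the group medians. AMEXTC_0340000125485 lies between 4.71 and 11.7 CPM in controls and between 180 and 8806 CPM in heated brains, and animals 38, 90 and 78 lead in 6 of the 7 features in that order.

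No feature with a full chaperone name, and no other feature named "heat", passed the threshold by edgeR in the main fit. AMEXTC_0340000248058, a further feature whose cut name is "heat", came closest. It had 156, 153, 110, 129 and 66.4 CPM in controls and 328, 2308, 185, 211, 708 and 1348 CPM in heated brains. All heated brains exceeded all controls, with a log2 change of 2.78 (SE 0.57, adjusted p = 0.0760 by edgeR). It passed by edgeR without heated animal 20, 53 or 75 (adjusted p = 0.0459, 0.0126 and 0.0179), and by DESeq2 (adjusted p = 0.000373).

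The chaperones with full names had larger values in some heated brains and control-like values in others. hsp90aa1.1, the stress-inducible cytosolic HSP90, was tightly held in controls at 71.5, 66.4, 62.5, 62.8 and 71.2 CPM. In heated brains it was 121, 970, 71.1, 79.3, 300 and 503 CPM. Animals 53 and 75 therefore lay at or just above the control range, and animal 38 far above it. The log2 change was 2.33 (SE 0.64, adjusted p = 0.458 by edgeR). hspb6, a small heat shock protein known for its place in muscle, had 14.2, 34.7, 21.8, 16.5 and 13.9 CPM in controls and 55.6, 651, 23.9, 14.4, 118 and 365 CPM in heated brains. Its heated animals 53 and 75 again lay within the control range (log2 change 3.41, SE 0.91, adjusted p = 0.436 by edgeR and 0.0354 by DESeq2). DNAJB1 (AMEXTC_0340000121396), the co-chaperone that activates HSP70, had 59.6 to 92.3 CPM in controls. It had 61.6, 535, 81.5, 73.2, 146 and 342 CPM in heated brains, so 38, 90 and 78 stood above the controls and 20, 53 and 75 among them. Its log2 change was 1.49 (SE 0.51, adjusted p = 0.759 by edgeR). LOC103612238, which has no function in its name, had 9.91 to 18.8 CPM in controls and 34.95, 264, 17.6, 17.2, 86.8 and 122 CPM in heated brains (2.66, SE 0.63, adjusted p = 0.238).

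One order of the heated animals recurred over the 3 called features, AMEXTC_0340000248058 and LOC103612238. Animal 38 was highest in all 5. Animal 20 ranked 4th each time, and animals 53 and 75 held the bottom 2 places. Animals 90 and 78 held ranks 2 and 3, with 90 ahead in 4 of the 5. It did not hold in the other 5 named features with the smallest p upward, where animal 38 ranked 2 for GADD45B, 5 for abhd4 and LOC101937878, and 6 for LOC105357518 and "carbamoyl". The features share their libraries, so the recurring order describes these 6 animals and is not 5 separate observations. The only heated male, 90, was among the top 3.

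Chaperones that act without stress showed no such spread. HSP90AB1, the constitutive cytosolic HSP90, had 3130 to 4440 CPM in controls and 3002 to 4165 CPM in heated brains (log2 change -0.22, SE 0.18, adjusted p = 0.863 by edgeR). HSPA4, an HSP110 family member, had a log2 change of -0.08 (SE 0.10), and hspa5, the HSP70 of the endoplasmic reticulum, of -0.21 (SE 0.19). HSP90B1, the HSP90 of the same compartment, changed by -0.15 (SE 0.13). HSPD1, the mitochondrial chaperonin, had 210 to 305 CPM in controls and 173 to 267 CPM in heated brains (-0.29, SE 0.17). BAG3, an HSP70 cofactor that heat induces in mammalian cells, differed by 0.12 (SE 0.17), and the mRNA of HSF1 itself by -0.09 (SE 0.10). The adjusted p of each of these 6 was 0.849 or above by edgeR.

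Counted over 5 chaperone lists, 25 of 74 tested features were higher after heat and 49 lower, and none passed by edgeR. Over all features tested 0.0194% passed and the median log2 change was -0.0042. At that share the absence of calls among 74 features says little. The lists were matched by gene symbol, so features with cut names, the called ones among them, could not enter any list. The HSP70, HSP110 and HSP90 families had 5 higher and 8 lower of 13 (median log2 change -0.08), and only hsp90aa1.1 among them had an unadjusted p under 0.05. No feature named HSPA1, HSPA2 or HSPA8 was among these 13, so the median does not cover those HSP70 genes. Small heat shock proteins had 2 higher and 2 lower (median 0.34, which rests on 4 features and was -0.0973 with the 11 BTS brains alone and 0.16 without animal 38), with hspb1.L at 0 to 1.34 CPM in every library. DNAJ co-chaperones had 11 higher and 18 lower of 29 (median -0.15). Both DNAJB1 features headed that list upward, and DNAJC7, which also binds HSP70 and HSP90, was -0.31 (SE 0.13, unadjusted p = 0.0199). HSP70 and HSP90 cofactors had 4 higher and 15 lower of 19 (median -0.12). bag2.L, an inhibitor of the ubiquitin ligase that works with HSP70, was -0.85 (SE 0.41, adjusted p = 0.849 by edgeR), and PPID, an HSP90-bound prolyl isomerase, was -0.28 (SE 0.14). Chaperonins had 3 higher and 6 lower of 9 (median -0.13, and -0.05 without control 71). Near-identical copies could have split or lost reads in the counting, so levels in these families are uncertain.

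Of the 20 lists other than markers, immediate early genes had the highest share of members above 0. Of 33 tested, 27 were higher and 6 lower (81.8% against 49.5% of all features), the median log2 change was 0.29, and none passed. Unadjusted p was under 0.05 for 8 members, all higher (24.2%, against 5.4% of all features in either direction). This list and the others were chosen with earlier results of these data known, so such shares are no independent support. fos.L, the FOS subunit of AP-1, had 19.1, 25.0, 17.7, 7.82 and 3.77 CPM in controls and 32.5, 60.2, 15.01, 26.5, 27.1 and 39.6 CPM in heated brains. Only animal 53 lay within the control range (log2 change 1.19, SE 0.42, adjusted p = 0.759 by edgeR). FOSL2, an AP-1 subunit of slower kinetics, had 13.4 to 23.6 CPM in controls and 29.6, 62.3, 18.6, 15.4, 40.5 and 29.1 CPM in heated brains (1.04, SE 0.36). FOSB reached 20.1 CPM in animal 38 against at most 2.94 CPM in controls (1.85, SE 0.79), and FOSL1 reached 7.45 CPM there against at most 2.19 CPM (1.62, SE 0.69). JUN, the partner of FOS in AP-1, overlapped widely (0.56, SE 0.51), as did ATF3, a stress-induced transcription factor (0.60, SE 0.53). Control 74 was the lowest control over the list, with a median log2 difference of -0.48 from the control mean, and its part in the median was not tested. Without it the list's median was 0.34.

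Other stress genes did not pass either, and their signs were mixed. GADD45B, induced by stress and DNA damage, had 5.14, 6.72, 6.59, 5.04 and 1.65 CPM in controls and 5.32, 17.97, 7.23, 10.8, 11.9 and 18.6 CPM in heated brains. All heated brains but 20 exceeded the highest control (log2 change 1.29, SE 0.33, adjusted p = 0.331 by edgeR). DDIT4, which restrains mTOR under stress, had 34.4 to 74.7 CPM in controls and 69.2, 253, 84.5, 68.8, 103 and 154 CPM in heated brains (0.96, SE 0.34, adjusted p = 0.759). PTGS2, the inducible cyclo-oxygenase of prostaglandin synthesis, had 7.48, 2.19, 2.23, 2.09 and 1.65 CPM in controls and 4.23, 30.8, 5.05, 3.37, 7.61 and 15.2 CPM in heated brains (1.76, SE 0.53, adjusted p = 0.759). In these 2 genes animals 38 and 90 were again the highest. Glucocorticoid response genes had 12 higher and 7 lower of 19, with a median of 0.27. PDK4, which limits glucose oxidation, differed by 0.46 (SE 0.20), and FKBP5, a co-chaperone of the glucocorticoid receptor, by -0.02 (SE 0.24). Growth arrest and p53 genes had 13 higher and 7 lower of 20 (median 0.13, but -0.0174 with the 11 BTS brains alone and 0.03 without control 74). Inflammation genes had 10 higher and 7 lower of 17 (median 0.05), and glycolysis and hypoxia genes 10 and 9 of 19 (median 0.04). Both medians changed sign with single libraries left out.

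**Figure D2:**
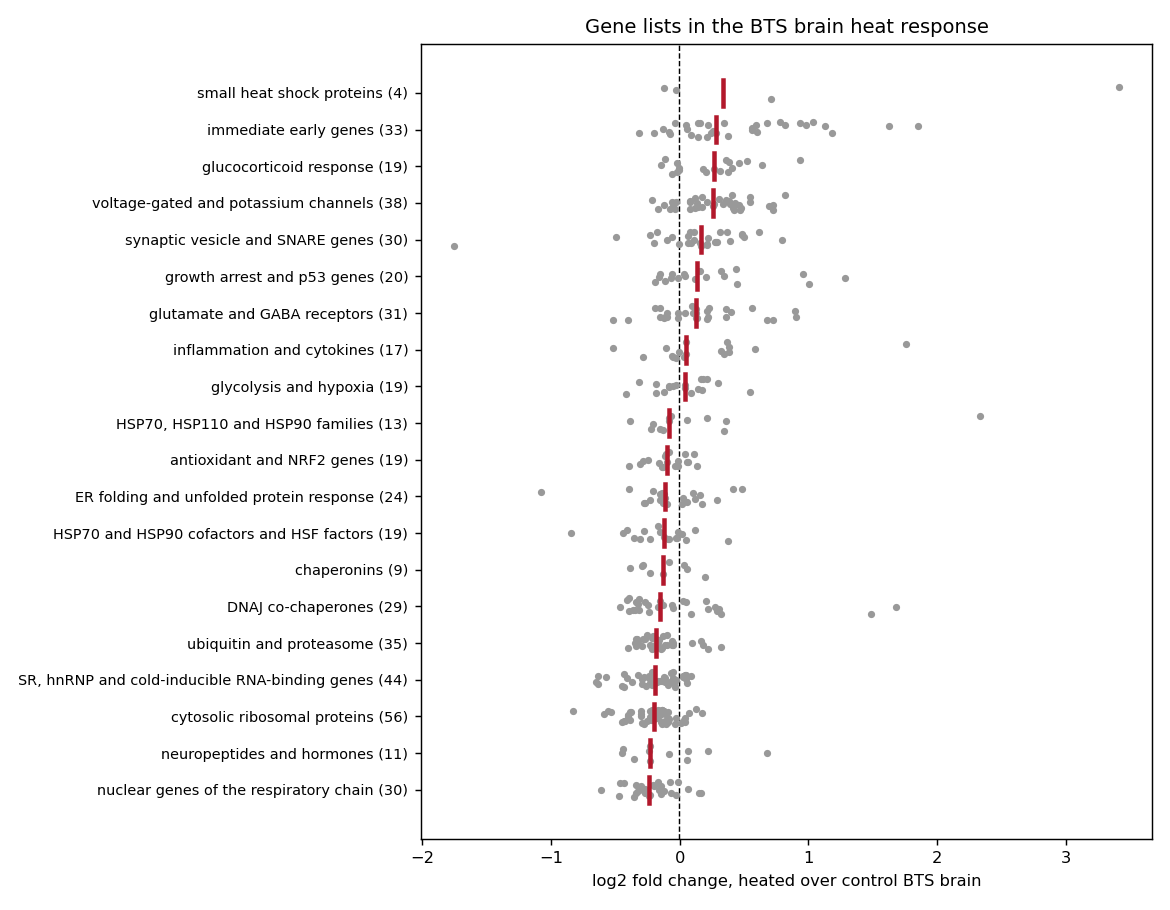
Log2 fold change of heated over control BTS brains for the tested members of 20 gene lists. Grey points are features, red bars the list medians, the dashed line the median of all features tested (-0.0042), and numbers in parentheses count tested features. Medians run from -0.23 for the respiratory chain to 0.34 for small heat shock proteins (-0.0973 with the 11 BTS brains alone), and no member of any list passed the threshold by edgeR. Features with cut names belong to no list.

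Ion channel and synaptic lists had more members higher than lower after heat. Voltage-gated and potassium channels had 30 higher and 8 lower of 38 (78.9% against 49.5% of all features), with a median of 0.26 and no member past the threshold. All 6 heated brains had a list level above all 5 controls: their median log2 differences from the control mean were 0.40, 0.27, 0.13, 0.06, 0.47 and 0.13 in the order above, against -0.10 to 0.03 in controls. The margin was narrow, at 0.06 in animal 75 against 0.03 in the highest control. How many of the other lists separate in this way was not counted. CACNA1C, the L-type calcium channel, had 56.0 to 87.6 CPM in controls and 118, 119, 72.6, 84.3, 108 and 111 CPM in heated brains (log2 change 0.54, SE 0.25, adjusted p = 0.849 by edgeR). CACNA1H, a T-type calcium channel, differed by 0.70 (SE 0.29) and CACNA1B (AMEXTC_0340000006382), the N-type channel of synaptic terminals, by 0.73 (SE 0.34). Other CACNA1B features differed by 0.55 (SE 0.41) and 0.21 (SE 0.24). Besides CACNA1C, CACNA1H and AMEXTC_0340000006382, no member of the list had an unadjusted p under 0.05 by edgeR. Of all features tested 5.4% had such a p. Among glutamate and GABA receptors 20 were higher and 11 lower of 31 (median 0.12). GRM7, a presynaptic glutamate receptor that dampens release, did not overlap between groups: 22.0, 15.2, 21.2, 16.2 and 12.0 CPM in controls, and 26.5, 28.3, 24.0, 28.4, 30.1 and 26.0 CPM in heated brains (0.68, SE 0.23, adjusted p = 0.759). Such separation held for 43 of all features upward (0.278%) and 34 downward (0.22%). Synaptic vesicle and SNARE genes had 22 higher and 8 lower of 30 (median 0.17, and 0.07 without animal 20), with STX1A, the syntaxin of transmitter release, at 0.61 (SE 0.29). The 2 libraries highest for channels and synaptic genes, 20 and 78, had oligodendrocyte sums below every control and the lowest ribosomal levels, and the part of tissue make-up in these values was not tested. Neuron markers did not share the sign of the channels: 5 were higher and 6 lower of 11 (median -0.07), and their summed level was 5727 to 9386 CPM in controls and 3760 to 6988 CPM in heated brains. The neurofilament genes NEFL (-0.95, SE 0.52), NEFM (-0.98, SE 0.50) and NEFH (-0.91, SE 0.48), which build the axonal skeleton, and GAP43 (-0.48, SE 0.22), a growth cone protein, were at the lower end of them, each with an adjusted p of 0.849 by edgeR. Animals 38 and 78 were below every control in all 4 genes. HOX sums also differed among the libraries, and their part in these 4 genes was not tested.

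Genes of protein synthesis, respiration and RNA handling leaned downward. Of 56 tested ribosomal protein features, which make up the cytosolic ribosome, 7 were higher and 49 lower, with a median of -0.20 (-0.31 to -0.06 over libraries left out in turn) and none past the threshold. That median does not describe all heated animals. The list's median log2 difference from the control mean was -1.18 in animal 20 and -0.86 in animal 78, but 0.25, 0.22, 0.10 and -0.27 in 38, 53, 75 and 90, against -0.29 to 0.24 in controls. RPL6 had 477 to 770 CPM in controls, 279 and 360 CPM in 20 and 78, and 555 to 671 CPM in the other 4. Nuclear genes of the respiratory chain had 3 higher and 27 lower of 30 (median -0.23), again with 20 and 78 lowest (-0.78 and -0.66, other heated brains -0.15 to 0.03). ndufb10, a subunit of complex I, had 85.1, 93.9, 64.2, 74.1 and 86.7 CPM in controls and 45.7, 54.7, 51.6, 64.8, 38.1 and 57.7 CPM in heated brains. Only animal 75 reached the lowest control (-0.61, SE 0.21, adjusted p = 0.759 by edgeR). Ubiquitin and proteasome genes had 5 higher and 30 lower of 35 (median -0.18). Antioxidant genes had 5 higher and 14 lower of 19 (median -0.10). In both lists some members were lowest in 20 and 78 among heated brains. PSMA5 had 33.2 and 35.9 CPM there against 48.0 to 68.8 CPM in the other heated brains, and prdx4.S 48.2 and 44.8 against 80.1 to 88.1 CPM. Other members, such as PSMD7 and NFE2L2, did not have that order. These medians need not describe all heated animals.

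Splicing and RNA-binding genes had 7 higher and 37 lower of 44, with a median of -0.19 and none past the threshold. Animal 78 was the lowest, below every control, but animal 20 lay within the controls: the list's level was -0.02 in 20, -0.22 in 38, -0.22 in 53, 0.11 in 75, -0.28 in 78 and -0.06 in 90, against -0.17 to 0.16 in controls. TRA2B, a splicing regulator, had 322, 317, 348, 403 and 358 CPM in controls and 329, 282, 296, 308, 234 and 223 CPM in heated brains (log2 change -0.37, SE 0.12, adjusted p = 0.759 by edgeR). srsf3 (AMEXTC_0340000120121), a splicing factor of the SR family, differed by -0.41 (SE 0.14), while its other feature, AMEXTC_0340000062286, differed by 0.05 (SE 0.15). CIRBP, whose mRNA rises in the cold in mammals, had 1229 to 2945 CPM in controls and 1054 to 2623 CPM in heated brains (-0.43, SE 0.23, adjusted p = 0.849).

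**Figure D3:**
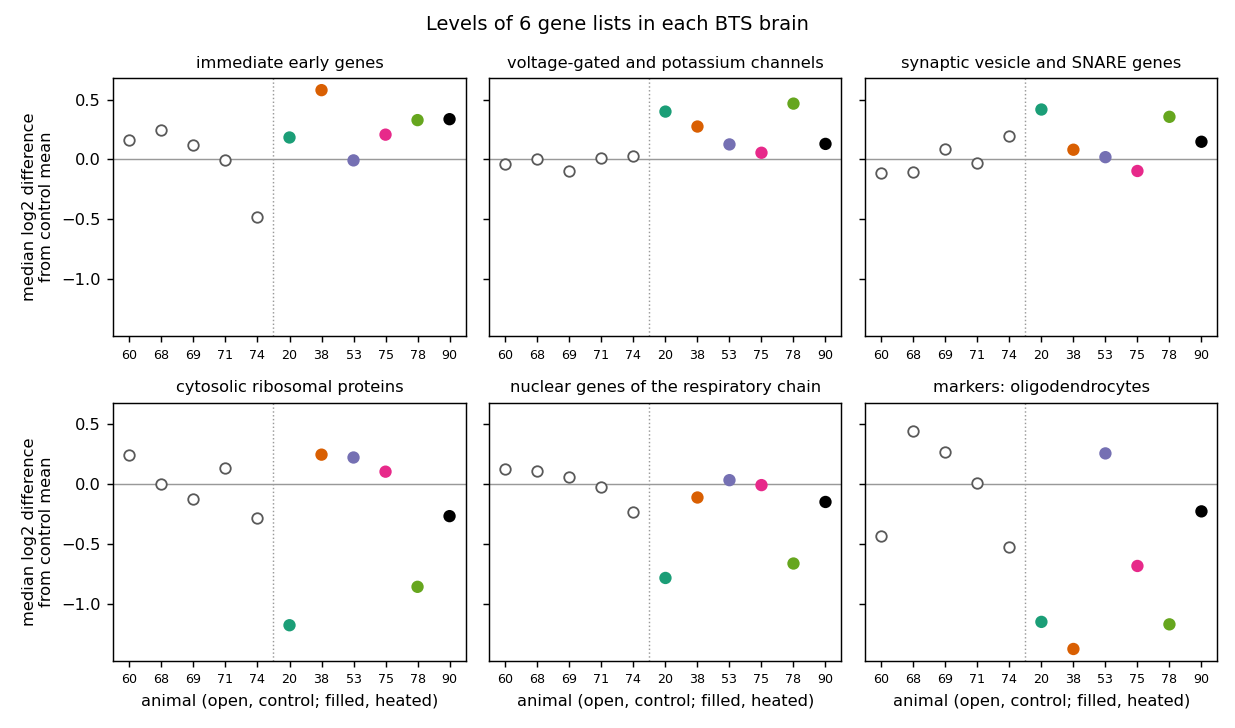
Median log2 difference from the control mean over the tested members of 6 gene lists, for each BTS brain (open points, 5 controls; filled points, 6 heated). Animals 20 and 78 stand apart for ribosomal proteins (-1.18 and -0.86) and the respiratory chain (-0.78 and -0.66), and animals 20, 38 and 78 are lowest for oligodendrocyte markers (-1.15, -1.38 and -1.17).

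At the lower end of the ranking no feature passed by edgeR in the main fit. CMTM5, a membrane protein of myelinating cells in mammals, had 78.4, 177, 103, 94.8 and 78.2 CPM in controls and 63.2, 40.9, 85.4, 46.4, 39.6 and 53.0 CPM in heated brains. Only animal 53 lay within the control range (log2 change -1.03, SE 0.22, adjusted p = 0.0798 by edgeR). Animal 53 also had the highest oligodendrocyte sum of the heated brains, and all 10 oligodendrocyte markers tested were lower after heat, with a median of -0.66 and 1 of them, OLIG2, at an unadjusted p under 0.05 (-0.53, SE 0.25). In bulk tissue fewer cells of a type and less RNA per cell cannot be told apart, and the part of the oligodendrocyte levels in CMTM5 was not tested. HOX sums differed among these libraries too. The part of hindbrain and spinal cord content in the oligodendrocyte markers and in CMTM5 was not tested. CMTM5 passed without heated animal 53 (adjusted p = 0.00994 by edgeR), and without control 68 its change was -0.76 (adjusted p = 0.505).

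LOC101951468 had 38.3, 56.9, 76.8, 32.5 and 6.36 CPM in controls and 12.3, 5.73, 6.14, 5.46, 31.4 and 8.31 CPM in heated brains. The groups overlapped: control 74 had a level like those of most heated brains, and heated animals 20, 78 and 90 lay within the control range (-1.92, SE 0.42, adjusted p = 0.116 by edgeR), and without animal 78 the adjusted p was 0.00183. znf91, a zinc finger gene, did not overlap, with 17.7 to 35.6 CPM in controls and 11.7 to 17.4 CPM in heated brains (-0.83, SE 0.20, adjusted p = 0.240). TEPSIN, an accessory protein of AP-4 vesicle coats, likewise did not overlap, with 7.30 to 11.9 CPM in controls and 3.44 to 7.22 CPM in heated brains (-0.82, SE 0.23, adjusted p = 0.528). CCDC59 (-0.94), PMF1 (-0.60), a kinetochore protein, LOC108703071 (-0.59), LOC109291933 (-0.69) and CUNH22orf15 (-1.97) complete the 10 named features with the smallest p in this direction.

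Upward, the ranking also held features that are not named as chaperones or "heat". abhd4 (AMEXTC_0340000038569), a lipase of N-acyl ethanolamine synthesis, had 50.2, 51.4, 65.7, 60.3 and 35.8 CPM in controls and 79.1, 76.6, 55.8, 88.4, 93.5 and 102 CPM in heated brains. All but animal 53 exceeded the controls, by a log2 change of 0.67 (SE 0.14, adjusted p = 0.0798 by edgeR), and without 53 the adjusted p was 0.00828. A second abhd4 feature, AMEXTC_0340000174090, differed by 0.84 (SE 0.26, adjusted p = 0.759). The feature named "carbamoyl" had 0 to 0.469 CPM in controls, 79.0 CPM in heated animal 75, 8.22 CPM in 78 and 0 to 0.819 CPM in the other 4. Animals 75 and 78 are those with hepatocyte transcripts, and without them its log2 change fell from 5.94 to 0.80 (adjusted p = 0.935 by edgeR). LOC105357518 (AMEXTC_0340000037444; 1.22, SE 0.30) and LOC101937878 (3.13, SE 0.79) were highest in animal 90.

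HEMK1, a methyltransferase of translation release factors, fell into high and low animals that only partly matched the treatment. It had 196, 109, 165, 190 and 184 CPM in controls, 188 CPM in heated animal 75, and 7.78, 12.6, 12.6, 9.13 and 8.76 CPM in heated animals 20, 38, 53, 78 and 90. The fitted log2 change was -2.21 (SE 0.51, adjusted p = 0.190 by edgeR), and without animal 75 it was -4.09 (adjusted p = 2.416e-15). The same animals were high or low in leg muscle. As CPM of the library total, muscle had 55.9 to 85.1 CPM in controls 60, 71, 74 and 80, 87.2 CPM in heated animal 75 and 1.12 to 2.57 CPM in the other 5 heated animals. The exception was control 68, with 106 CPM in brain and 5.18 CPM in muscle. Over all features its brain and muscle had the lowest same-animal correlation of deviations, 0.0767, close to 0.0882 in heated animal 53. The highest was 0.356. With the muscles of the other controls, brain 68 correlated at -0.0656 to 0.0236. Whether both libraries of control 68 come from 1 animal was not tested. All 10 CTS brains (5.86 to 13.8 CPM) and all 21 F1 brains (6.37 to 16.6 CPM) were low, heated or not. In the BTSbc backcross brains the heated animals 12 and 30 were high (176 and 156 CPM) and the control 26 was low (14.9 CPM). Those 3 are BTSbc by genotype tag, while their titles say BTS or F1. Among BTS animals the low level was nearly confined to the heated group, so animal and treatment cannot be told apart for this gene.

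**Figure D4:**
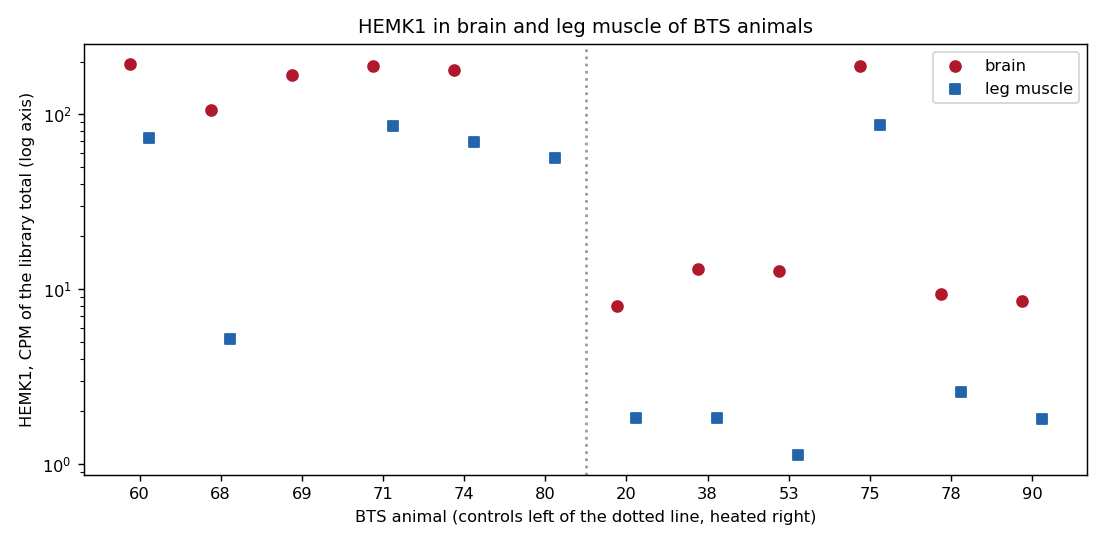
HEMK1 level in brain (circles) and leg muscle (squares) of each BTS animal, in CPM of the library total on a log axis, with controls left and heated animals right of the dotted line. Heated animal 75 is high in both tissues (188 and 87.2 CPM), the other 5 heated animals are low in both, and control 68 is high in brain and low in muscle.

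The BTS response was set beside those of CTS, the California tiger salamander Ambystoma californiense (5 heated, 5 controls), and of the F1 hybrids of both species (9 heated, 12 controls), in the same fit. F1 animal 16, with 5418 reads, and animal 64, whose 2 tissues carry opposite treatment tags, were left out of it. CTS animal 76, heated, is CTS by genotype tag and BTS by title. Without it 0 features passed the threshold for a difference in response between BTS and CTS (327 unadjusted). No feature passed the threshold for a difference in response between BTS and CTS (0 of 15487, with 308 at an unadjusted p under 0.05). None passed between BTS and F1 either (0, with 827), by edgeR's quasi-likelihood test. DESeq2 called 2 and 1. By chance alone 774.4 features would have such an unadjusted p, and 308 lies far below that number. A missing call therefore does not show that the responses were equal. AMEXTC_0340000125485 rose by 8.33 in BTS, 6.01 in CTS (SE 1.05, adjusted p = 0.0178) and 7.39 in F1 (SE 0.72, adjusted p = 1.5e-08). The difference of BTS from CTS was 2.33 (SE 1.27, adjusted p = 1) and from F1 0.94 (SE 1.05, adjusted p = 0.900). hsp90aa1.1 changed by 2.33 in BTS, 2.40 in CTS (SE 0.67) and 3.20 in F1 (SE 0.44), and the differences were -0.06 (SE 0.91) and -0.87 (SE 0.73). hspb6 changed by 3.41, 3.58 (SE 0.97) and 4.73 (SE 0.64). F1, with more libraries, had 16 features past the threshold upward and 3 downward, among them hspb6, hsp90aa1.1, DNAJB1, fos.L, GADD45B and DDIT4, while CTS had 1.

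A few of the leading BTS features had values near 0 in both other groups. abhd4 changed by 0.05 in CTS (SE 0.14) and 0.04 in F1 (SE 0.10), and its differences from BTS were 0.62 (SE 0.21, unadjusted p = 0.00451) and 0.63 (SE 0.17, unadjusted p = 0.000869). CMTM5 changed by 0.10 in CTS (SE 0.22) and -0.11 in F1 (SE 0.15), with differences of -1.13 (SE 0.32) and -0.92 (SE 0.27). Adjusted over all features, neither gene's differences passed (adjusted p of 0.885 or above by edgeR). Both genes also had lower levels in BTS controls than elsewhere: CMTM5 stood at 106 ± 40.9 CPM in BTS, 301 ± 31.1 in CTS and 161 ± 40.0 in F1 controls (SD, n = 5, 5 and 12). abhd4 stood at 52.7 ± 11.4, 116 ± 6.54 and 87.2 ± 11.4 CPM. These features were taken from the head of the BTS ranking, which favours a contrast of this kind.

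**Figure D5:**
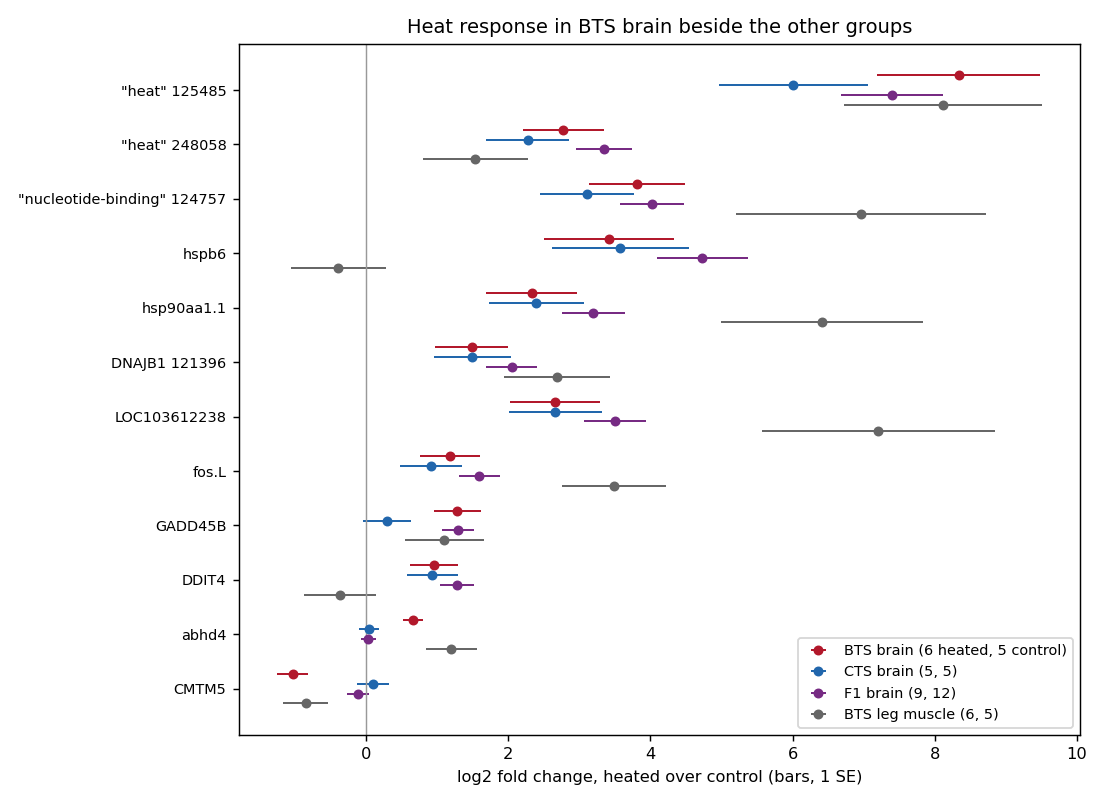
Log2 fold change of heated over control, with bars of 1 SE, for 12 features in BTS, CTS and F1 brain (1 fit) and in BTS leg muscle (a fit of both BTS tissues). AMEXTC_0340000125485 is at 8.33, 6.01, 7.39 and 8.12, while abhd4 and CMTM5 lie within 0.11 of 0 in CTS and F1 brain. No difference from BTS brain passed after adjustment.

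Leg muscle of the BTS animals gave a second tissue, from 6 heated and 5 control animals, 10 of which also gave a brain. In a fit of both tissues no feature passed the threshold for a difference in heat response (0 of 15237, with 617 at an unadjusted p under 0.05, by edgeR). With the animal as a block, over the 20 libraries of the 10 animals with both, 0 of 15215 passed (856 unadjusted). DESeq2 called 4. A missing call does not show that the 2 tissues responded alike. That joint fit of 22 libraries called no feature for brain, and 1 up and 1 down for muscle. The one higher in muscle was AMEXTC_0340000125485, with 2.15 to 14.6 CPM in control muscles and 146, 4586, 150, 18.4, 1301 and 2445 CPM in heated muscles 20, 38, 53, 75, 78 and 90, on a scale set over both tissues. Its rise in muscle was 8.12 (SE 1.39, adjusted p = 0.0469), and the brain value was 8.40 in that fit (difference 0.28, SE 1.47). Animals 38, 90 and 78 were the 3 highest in both tissues, in that order, and 75 the lowest in both. hsp90aa1.1 was at 0.268 to 1.75 CPM in control muscle against 30.5 to 35.4 CPM in control brain on that scale. Heated muscles had 2.37, 291, 0.864, 0.345, 31.8 and 86.8 CPM in the same order, and brain 38 reached 479 CPM. Muscles 53 and 75 thus lay within the control range. Its change was 6.41 (SE 1.42) in muscle and 2.42 in brain. The difference was -3.98 (SE 1.67, unadjusted p = 0.0254 by edgeR) and did not pass after adjustment. hspb6 lay the other way, with 764 to 5120 CPM in control and 1528 to 2101 CPM in heated muscle, so the brain change of 3.32 stood beside a muscle change of -0.39 (difference 3.71, SE 0.98, unadjusted p = 0.000936, adjusted p = 1). abhd4 and CMTM5 had changes of 1.2001 (SE 0.36) and -0.85 (SE 0.32) in muscle, the same signs as in brain.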

How the data were processed

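Brain and leg muscle RNA of salamanders was sequenced. The authors deposited raw counts of reads per feature, 23251 features with 48 brain and 50 muscle libraries; F1 animal 17 brain was not analysed here. Per the labels' protocols, RNA was extracted with TRIzol and PureLink columns and stranded poly(A) libraries were read single-end. Per the submitters' processing notes, Trimmomatic, FastQC, STAR and HTSeq were used; no source used here names versions, the genome build or the counting options. No name is given for 974 features, and other names are cut to a first word.

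Groups came from the labels' genotype, treatment and sex tags. The labels give every sample the organism Ambystoma californiense, so species names of BTS were taken from its abbreviation. edgeR 4.0.16 in R 4.3.3 fitted TMM-scaled counts, filtered by filterByExpr, by quasi-likelihood with group and sex over 42 BTS, CTS and F1 brain libraries (35 residual degrees of freedom). F1 animals 16 and 64 were left out. Benjamini-Hochberg adjustment covered all 15487 features tested, with a threshold of 0.05. A second fit took 22 BTS brain and muscle libraries. SE is the log2 change divided by the square root of F. List levels by library used log2 CPM with a prior count of 2. DESeq2 1.42.0, limma 3.58.1, other scalings, filters and sample sets were alternatives. BTS brain libraries held 3213005 to 13506066 counted reads, and intervals cover counting error only. No 2 BTS brain libraries of a group agreed within sampling noise (25 pairs, lowest chi-square per degree of freedom 9.78). Control 74 lay furthest from the other controls, at 36.4 to 44.1, against 9.78 to 26.4 for control pairs without it. Heated pairs ran from 13.8 to 44.0.

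Named features were, first, all past the threshold. Next came the 10 with the smallest p in each direction with a name and a mean of 5 CPM or more in either group. The others came from 30 genes reported earlier, of which 28 were tested, and the 2 smallest-p and the most abundant members of each list. The members and lists were chosen with earlier results of these data known, and 3 lists were added after the values were seen. On simulated data for the BTS brain comparison (15318 features), 48% of 50 features changed by a log2 of 1 and 90% of 50 changed by 2 were recovered. In the same simulation 11 unchanged features were called. Every simulated heated library had the same change and the same dispersion as controls, so the wider spread among real heated brains was left out. The recovery need not hold for features that vary among heated brains. Animal numbers in the labels pair brain with muscle of the same animal. Deviations of same-animal libraries from their group means correlated at 0.187 on average over 10 pairs (0.0767 to 0.356), against -0.0368 between other animals. One named list member is not reported here.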

Additional observations from a re-analysis of the deposited data

Results flagged for a closer look

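In 18 of 226 groups of 5 or 6 libraries, 7.96%, the highest or lowest library lay apart from the rest by Dixon's criterion, against about 5% by chance. Animal 75 stood apart among the heated brains for HEMK1 (188 CPM), the feature named "carbamoyl" (79.0 CPM) and the hepatocyte gene sum (322 CPM). Animal 38 was the highest heated brain for FOSB (20.1 CPM), FOSL1 (7.45 CPM) and TP53INP1 (16.4 CPM), a p53-induced stress gene. Animal 90 was highest for LOC101937878 (36.6 CPM) and for the sum of 4 pituitary markers (8116 CPM), animal 78 for LOC101951468 (31.4 CPM), and animal 53 was lowest for CACNA1H (5.87 CPM).

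Among controls, animal 68 was highest for CMTM5 (177 CPM), for FOSL1 (2.19 CPM) and for the second DNAJB1 feature, AMEXTC_0340000062968 (1.88 CPM). Control 60 was highest for PTGS2 (7.48 CPM), control 71 for serpinh1 (AMEXTC_0340000046516; 8.69 CPM), the collagen chaperone, and control 69 for PRDX5 (504 CPM), a peroxiredoxin. Control 69 was lowest for the pituitary sum (3775 CPM) and control 74 for RHOB (56.3 CPM), a stress-induced small GTPase.

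The BTSbc backcross brains entered no comparison. AMEXTC_0340000125485 stood there at 950 CPM of the library total in heated animal 12 and at 3464 in heated animal 30, against 8.34 in the only control, animal 26.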

How the results depend on the processing

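No call changed sign, but values short of the threshold did: 31 of 1185 values of single features, and the medians of 4 lists. The count of 3 features became 0 with the 11 BTS brains alone, 1 with BTS females only and 15 with DESeq2. It was 7 without heated animals 75 and 78 (chosen after seeing the data, 4 higher, 3 lower). It was 0 with F1 animals 16 and 64 kept, where brain 64, tagged control, had 5572 CPM of AMEXTC_0340000125485. Leaving out each library in turn gave 1 to 6. With the BTS brains alone the median of small heat shock proteins was -0.0973 and that of growth arrest and p53 genes -0.0174, and the DNAJ median ran from -0.182 to -0.0669 (without control 60) over libraries left out. The inflammation median ran from -0.01 to 0.21 and that of glycolysis from -0.03 to 0.06. Of the counts and medians recomputed, 33 moved and 349 did not. The causes were not tested. Leaving out CTS animal 76, chosen after seeing the data for the differences between genotypes, gave 0 and 0. DESeq2 called 2 features for BTS against CTS, 1 for BTS against F1 and 4 for brain against muscle; libraries left out gave 0 to 1, 0 to 1 and 0 to 0. With the animal number as a replicate block the brain and muscle difference still gave 0. Features whose groups did not overlap numbered 51 to 161 upward and 43 to 155 downward over libraries left out, where fewer libraries make separation easier. Of values of single features, 27 newly passed the threshold and 13 lost it. The rest kept their side of it: 1115 were counted as the same, and 30, short of the threshold in both fits, moved by more than their SE. The spread among heated brains and the unequal sexes limit what 11 libraries can show.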
